A study of Mus musculus with 2 samples.

Results

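The genes described here encode the machinery of DNA replication and the enzymes that supply its deoxynucleotides: 50 genes, of 22290 named genes on the array, selected by gene name from a list written with earlier results of these same arrays known. All 69 probes that carry these names were followed, of 55681 probes in all. The cells were 4T1, a murine breast cancer line of BALB/C origin grown in culture, which the ALDEFLUOR kit stains by the activity of their aldehyde dehydrogenases (ALDH) and which were sorted into high and low activity. One population of each kind, from non-treated cultures, was measured on 1 single-colour Agilent array. The labels call the samples "cancer stem cell" and "anti cancer stem cell", and these are named ALDH-positive and ALDH-negative here because the study uses high ALDH activity as its mark of stem-like cells. Neither population was replicated (n = 1 array each), so no test, p-value or replicate error could be given, and every difference is one between these 2 RNA samples. The ratios below chose no gene by a threshold, but the list was taken up with the pattern of this contrast already seen, so they are a description and not an independent test of its direction.

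Replication starts when the origin recognition complex, with CDC6 and CDT1, loads the MCM helicase onto DNA in G1 phase, a step called licensing. At the start of S phase CDC45 and the GINS proteins join the MCM ring to form the active helicase, and polymerases α, δ and ε copy the strands behind it. The PCNA clamp, which replication factor C loads, holds polymerases δ and ε. Many of these genes are classical targets of the E2F transcription factors, which act at the G1/S boundary, whereas genes of G2 phase and mitosis often carry a CHR element and CCAAT boxes in their promoters. The mRNA of a population sorted from a growing culture reads the mean over cells in all phases, so that fewer cells in S phase and less mRNA per cell cannot be told apart.

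The promoter sequences were searched for these letters. Promoters were 250 bases before and 50 after the transcription start, from RefSeq on build GRCm38.p6, and 42 of the 50 genes had an entry, with 50 promoters. *Mcm4*, *Gins1*, *Gins2*, *Gins4*, *Gmnn*, *Prim2*, *Pole* and *Rfc2* were not in the table. An E2F site was searched on both strands as TTTGGCGC, TTTCGCGC or TTTCCCGC. At least 1 of these forms was present in 15 of the 50 promoters (30%) and in 606 of all 32851 promoters (1.84%). The share was similar in the promoters of further replication fork genes, a list described below (9 of 32, 28.1%). Stretches of 6 genes for licensing factors, helicase subunits and a polymerase are shown because they hold such a site before the transcription start, which 9 genes of the group did. Capitals mark the E2F letters, and in *Mcm6* and *Mcm5* the 2 forms overlap on opposite strands.

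Mcm6, chr1:128359786-128359833, minus strand: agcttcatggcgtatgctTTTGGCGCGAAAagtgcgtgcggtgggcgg
Mcm5, chr8:75109338-75109385, plus strand: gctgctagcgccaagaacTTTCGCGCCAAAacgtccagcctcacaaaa
Orc1, chr4:108579409-108579452, plus strand: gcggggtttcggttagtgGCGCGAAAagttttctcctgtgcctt
Cdc6, chr11:98907995-98908038, plus strand: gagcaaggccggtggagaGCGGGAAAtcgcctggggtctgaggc
Mcm7, chr5:138172023-138172066, minus strand: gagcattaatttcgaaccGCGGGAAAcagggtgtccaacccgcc
Pola1, chrX:93632268-93632311, minus strand: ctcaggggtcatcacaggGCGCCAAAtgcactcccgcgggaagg

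The G2 and mitosis genes, used below for comparison, had other letters. The CHR letters TTTGAA stood in 24 of their 35 promoters (68.6%), in 6 of the 50 promoters of the replication and nucleotide genes (12%) and in 17.9% of all promoters. CCAAT was found in 77.1% of the mitotic, 56% of the replication and nucleotide and 37.4% of all promoters. An E2F form was found in 4 of the 35 mitotic promoters (11.4%). The E-box CACGTG, the element that CLOCK binds, stood in 8 of the 50 promoters (16%) and in 12.5% of those of further replication fork genes. It stood in 8.57% of the mitotic promoters and in 7.15% of all promoters. Stretches of *Ccnf* and *Espl1* show the mitotic pattern, with CHR and CCAAT letters on either strand in capitals. A match of letters is a description and does not show that a factor binds there.

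Ccnf, chr17:24251494-24251574, minus strand: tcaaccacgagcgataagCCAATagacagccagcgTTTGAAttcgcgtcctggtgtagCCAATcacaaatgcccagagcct
Espl1, chr15:102296231-102296289, plus strand: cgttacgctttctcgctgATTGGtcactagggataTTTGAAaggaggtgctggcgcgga

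All 50 replication and nucleotide genes were expressed well above background in both populations, and their mRNA differed little between them. Signals are quantile-normalized intensities, and the log2 ratio is ALDH-positive over ALDH-negative, so that a value below 0 means a lower signal in ALDH-positive cells. Pairs of signals are given with the ALDH-negative population first and the ALDH-positive one second, followed by the log2 ratio in parentheses. Where a gene had several probes, its brightest measured probe stands for it. The median log2 ratio was -0.08 (a ratio of 0.949), and the genes ran from -0.47 for *Cdc45* to 0.24 for *Orc5*. Log2 ratios below 0 were found for 39 of the 50 genes (78%), against 39.4% of the 14043 genes measured on the array. When the arrays were instead aligned at their 75th percentile, 23 genes were below 0 and 27 above, with a median of 0.005. The genes were therefore read against the median of all measured genes, which was 0.05 and 0.09 under these scalings. By this measure 43 of 50 genes lay below it with quantile normalization and 41 with the percentile shift.

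No gene of the group passed the limits that the study set for a difference, which asked of higher genes a ratio of at least 1.5 and a Z-score of at least 2.0, and of lower genes at most 0.75 and -2.0. Of all measured genes, 1.35% passed the higher and 2.08% the lower limits. A ratio of 1.2 or more was found for 0 of the 50 genes and for 16.7% of measured genes. A ratio of 0.833 or less was found for 5 of the 50 genes and for 10.5% of measured genes. The 5 were *Cdc45*, *Cdc6*, *Rpa2*, *Pole2* and *Orc4*. The log2 ratios had an SD across genes of 0.14 in the group and 0.53 over all measured genes, many of which were dimmer. Among the 4537 measured genes with signals between the quartiles of the group's signals, the SD was 0.19, the median 0.04, and 38.3% were below 0. Of these 4537 genes, 265 had a ratio of 1.2 or more and 158 a ratio of 0.833 or less. Both are smaller shares than over all measured genes.

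The error of a single log2 ratio, combined from the errors that the scanner software gave to each signal, was 0.20 to 0.21 for these genes. It was nearly the same for every gene of the group, so it served as an almost fixed limit. Repeated spots on each array had smaller median SDs (0.06 ALDH-negative and 0.05 ALDH-positive, log2). The error does not cover the spread between cultures. By this limit 41 of the 50 genes lay within their error of 0. *Cdc45*, *Cdc6*, *Rpa2*, *Pole2*, *Orc4*, *Gins2*, *Orc1* and *Mcm4* were below 0 by more than their error, and *Orc5* above it. These 8 of 50 genes below 0 compare with 12.3% of all measured genes below 0 by more than their error, and the 1 gene above with 20.9%. These counts hold for quantile normalization. With the percentile shift *Gins2* (-0.18), *Mcm4* (-0.13) and *Orc5* (0.20) lay within their error, and *Tk1* (0.24) was above 0 by more than its error. Among the 4537 genes of similar signal, 735 lay beyond their error in either direction, 249 of them below 0.

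**Figure D1:**
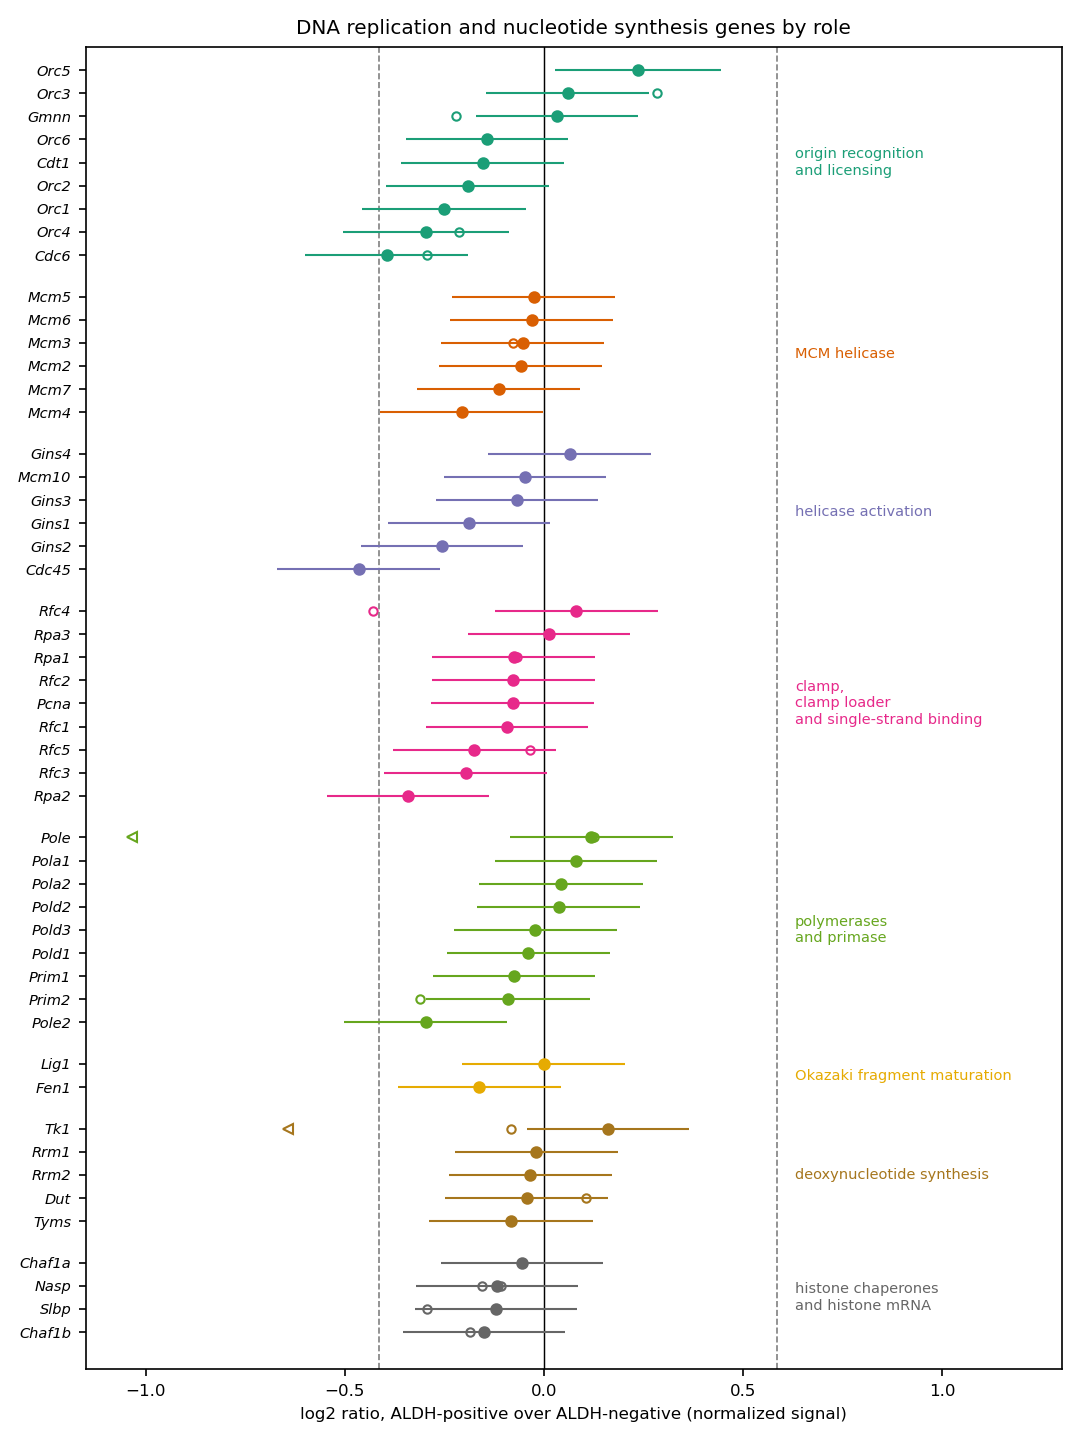
Log2 ratio, ALDH-positive over ALDH-negative, of the 50 genes by role (filled points, brightest probe; bars, scanner error, 1 array per population; open circles, other measured probes; triangles, probes not well above background in ALDH-positive cells; dashed lines, ratios of 0.75 and 1.5). All filled points except *Cdc45* lie between the dashed lines, and 39 lie left of 0 with quantile normalization, 23 with the 75th percentile shift.

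The licensing genes had a median log2 ratio of -0.15 (-0.09 with the percentile shift), with 6 of 9 below 0. *Cdc6*, the ATPase that recruits the helicase to the origin, had signals of 1163 and 884.4, or -0.40 as a log2 ratio. Its other probe gave -0.29, with signals of 203.6 and 166.1. Both probes were thus lower in ALDH-positive cells. *Cdt1*, its partner in loading, had 23596 and 21213 (-0.15).

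The 6 origin recognition subunits lay on both sides of 0. *Orc1*, the subunit whose level changes with the cell cycle, read 248.3 and 208.4 (-0.25), and *Orc4* 153.7 and 125.2 (-0.30, its other probe -0.21). *Orc2* stood at -0.19 and *Orc6* at -0.14. *Orc3* was at 0.06, and *Orc5* had the highest log2 ratio of all 50 genes, with 163.1 and 192.1 (0.24). *Gmnn*, which encodes geminin, the inhibitor of CDT1, had 1513 and 1547 (0.03). Its second probe, on the opposite strand, read -0.22 at signals of 46.74 and 40.08.

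The 6 subunits of the MCM2-7 helicase lay close together, from -0.21 to -0.03, with a median of -0.06 (0.01 with the percentile shift). *Mcm6*, at 46878 and 45895, had a log2 ratio of -0.03. *Mcm5* had 15955 and 15668 (-0.03), *Mcm2* 5000 and 4801 (-0.06), and *Mcm3* 22993 and 22150 (-0.05). *Mcm7* was at 19570 and 18086 (-0.11), and *Mcm4* was the lowest, at 18104 and 15686 (-0.21). Apart from *Mcm4*, the subunits lay within their error of 0.

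The factors that turn the loaded ring into a moving helicase spread more widely, with a median of -0.13 (-0.04 with the percentile shift). *Cdc45*, which joins MCM and GINS in that helicase, was the lowest of the 50 genes, with signals of 333.3 (ALDH-negative) and 241.5 (ALDH-positive), or -0.47 as a log2 ratio. Its Z-score against probes of similar signal was -1.68, short of the limit of -2.0. *Gins2* had 1501 and 1257 (-0.26) and *Gins1* 2446 and 2148 (-0.19). *Gins3* had 19025 and 18146 (-0.07) and *Gins4* 3091 and 3230 (0.06), so the 4 subunits of the GINS complex lay on both sides of 0. *Mcm10*, which helps to activate the helicase, was at -0.05.

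Of the clamp, its loader and the single-strand binding proteins, 7 of 9 were below 0, with a median of -0.08 (-0.01 with the percentile shift). *Pcna*, the sliding clamp, had 27706 and 26237 (-0.08), though the array's coordinates cover 33 bases of its 60-base probe. The loader subunits *Rfc3* (-0.20), *Rfc5* (-0.18), *Rfc1* (-0.09) and *Rfc2* (-0.08) were below 0, and *Rfc4* was at 0.08 by its brightest probe. *Rpa2*, a subunit of the complex that coats single-stranded DNA, had 1271 and 1004 (-0.34). Its partners *Rpa1*, at 19487 and 18490 (-0.08), and *Rpa3*, at 9765 and 9849 (0.01), lay within their error of 0.

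The polymerase and primase genes were split, 4 of 9 above 0, with a median of -0.02 (0.05 with the percentile shift). The catalytic subunit genes *Pole*, at 5710 and 6200 (0.12), and *Pola1*, at 2353 and 2488 (0.08), were above 0, and *Pold1*, at 7685 and 7480 (-0.04), below. *Pole2*, the second subunit of polymerase ε, had 1110 and 903.3 (-0.30). *Pola2* and *Pold2* stood at 0.04, *Pold3* at -0.02, and the primase genes *Prim1* at -0.08 and *Prim2* at -0.09 (its other probe -0.31). *Fen1*, the flap nuclease of Okazaki fragments, was at -0.16, and *Lig1*, the ligase that seals them, had nearly equal signals of 14142 and 14134.

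The genes of deoxynucleotide supply lay near 0, with a median of -0.03 (0.04 with the percentile shift). The ribonucleotide reductase subunits *Rrm1*, at 9617 and 9490 (-0.02), and *Rrm2*, at 15603 and 15237 (-0.03), and *Tyms*, the thymidylate synthase, at 239 and 225.7 (-0.08), lay within their error of 0. *Dut*, the dUTPase, was at -0.04. *Tk1*, thymidine kinase, had 16731 and 18690 (0.16), the second highest log2 ratio of the group. The 4 genes that supply histones to new DNA were all below 0 with quantile normalization, from -0.15 for *Chaf1b*, a subunit of chromatin assembly factor 1, to -0.06 for *Chaf1a*, with *Nasp* and *Slbp* at -0.12 (median -0.04 with the percentile shift). The other probe of *Slbp*, with signals of 831.6 and 678.6, read -0.29.

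**Figure D2:**
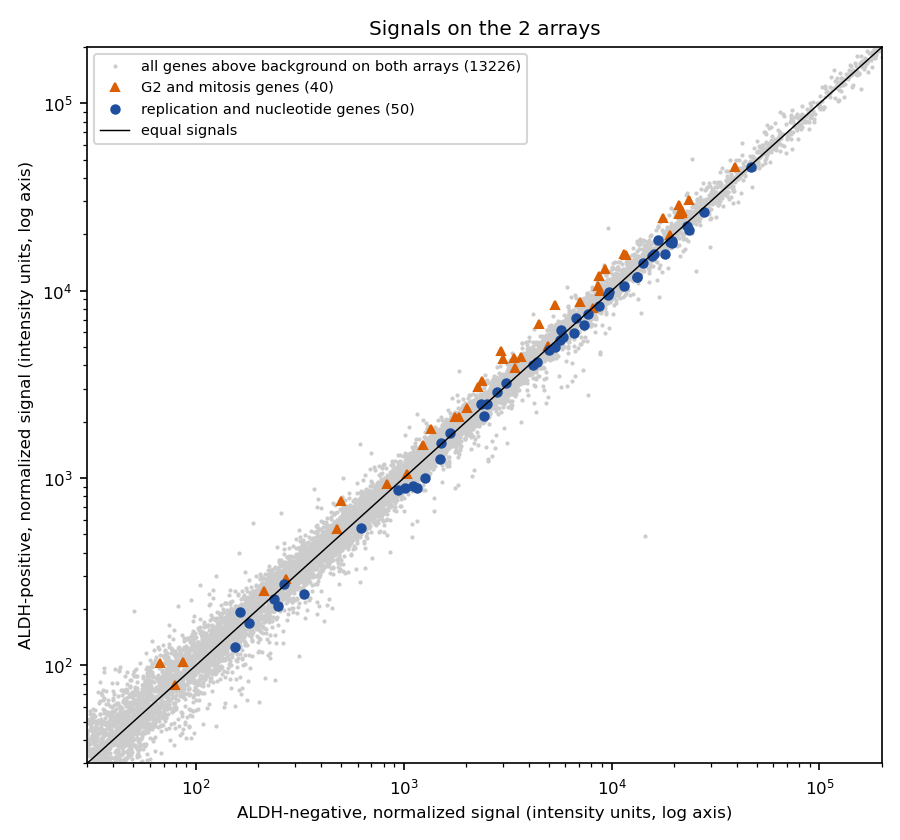
Normalized signal in ALDH-negative (x) and ALDH-positive cells (y), both axes logarithmic, 1 array each: grey, genes above background on both arrays; blue, the 50 replication and nucleotide genes; orange triangles, 40 G2 and mitosis genes; line, equal signals. The blue points follow the line across signals from 125.2 to 46878, and 38 of the 40 orange points lie above it.

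Probes of the same gene were a second reading of it on the same RNA. Several probes were measured for 15 genes, and the median spread between the probes of a gene was 0.15 (log2). In 9 genes all probes were below 0, in *Orc3* both were above it (0.06 and 0.28), and in 5 the probes differed in sign. Of all 68 measured probes of the group, 54 were below 0, against 47.1% of measured probes on the array. The remaining probe, a dim one of *Chaf1b*, was not above background on either array.

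The largest disagreement between well-measured probes was in *Rfc4*. Its brightest probe (chr16:23114024-23114083, build NCBI37) read 6751 and 7139 (0.08), and the other (chr16:23120982-23121041) read 1474 and 1095 (-0.43). The latter had a Z-score of -2.30 and a ratio of 0.743, and was the only probe of the group past the study's lower limits, which 2.88% of measured probes passed. Whether these probes lie in different exons or transcripts was not resolved here. *Tk1* read 0.16, -0.08 and, with a probe not well above background in ALDH-positive cells, -0.64 (signals of 21.17 and 13.57). *Pole* read 0.12 and 0.13 with its brighter probes, and its dimmest one was not well above background in ALDH-positive cells (18.2 and 8.885). Against the lowest signal well above background on that array, the latter was 1.44-fold lower. The scanner errors of these dim probes were 0.46 for *Tk1* and 0.59 for *Pole* (log2). Their Z-scores were -0.64 and -0.94, short of the limit of -2.0. *Dut* read -0.04 and 0.11. The high values of *Tk1* and *Rfc4* thus rested on 1 probe each, and the median over probes was -0.08 for *Tk1* and -0.17 for *Rfc4*.

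**Figure D3:**
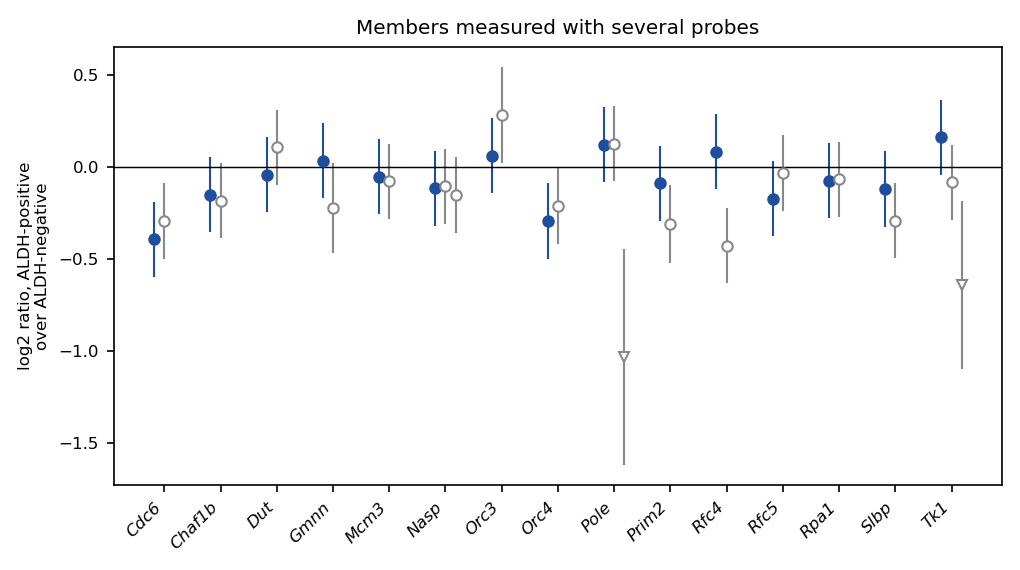
Log2 ratio, ALDH-positive over ALDH-negative, of each measured probe of the 15 genes with several probes (filled, brightest probe; open circles, other probes; triangles, not well above background in ALDH-positive cells; bars, scanner error). The probes of *Rpa1*, *Nasp*, *Mcm3* and *Chaf1b* nearly coincide, while those of *Rfc4*, *Tk1* and *Pole* fall on both sides of 0.

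Other genes of the pathway, from lists that hold none of the 50, had medians near 0. Of 32 further replication fork genes, 30 were measured, with a median log2 ratio of -0.03 and 17 below 0 (median 0.001 with the percentile shift, against 0.005 for the 50 genes). *Ctc1* and *Ticrr* were not found by name. *Wdhd1*, which links polymerase α to the helicase, had 457.9 and 308.9 (-0.57) and was the only one past the lower limits by its brightest probe. *Cdc7*, the kinase that activates the loaded MCM ring, had 52.61 and 35.5 (-0.57, its other probe -0.82). *Tipin*, of the fork protection complex, was at -0.28. *Uhrf1*, which couples DNA methylation to replication, was at -0.21 (its other probe -0.69). The 32 further genes of purine, pyrimidine, folate and deoxynucleotide synthesis had a median of -0.02, with 19 below 0 (median 0.04 with the percentile shift). None of the 32 genes passed the limits by its brightest probe. Of these *Prps2* was at -0.34, *Adsl* at -0.24, and *Tk2*, the mitochondrial thymidine kinase, at 0.26.

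The regulators of the G1/S transition had a median of 0.01 over 26 measured genes of 29, with 11 below 0. *Skp2*, part of the ubiquitin ligase that removes CDK inhibitors, read 805.7 and 647.8 (-0.32), and *E2f1* 2023 and 1745 (-0.21). *Ccnd1*, cyclin D1, was at -0.14. *Ccna2*, the cyclin of S and G2 phase, read 9891 and 11447 (0.21). None of the 26 passed the limits by its brightest probe. The 15 replication and nucleotide genes with an E2F form in the promoter had a median log2 ratio of -0.05, and the 27 without one -0.08.

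The G2 and mitosis genes stood apart from the replication genes. All 40 were measured, with a median log2 ratio of 0.28 (a ratio of 1.22), 38 above 0 and 25 with a ratio of 1.2 or more, against 16.7% of measured genes. *Ccnf*, cyclin F, had 2927 and 4753 (0.70), *Fzr1*, an activator of the anaphase-promoting complex, 5336 and 8346 (0.65), and *Kif2c*, a kinesin of the centromere, 500.3 and 755.3 (0.59). These 3 passed the higher limits by their brightest probes. The other measured probe read 0.32 for *Fzr1* and 0.34 for *Kif2c*, both short of a ratio of 1.5, and *Ccnf* had no other measured probe. *Aurkb*, the Aurora B kinase, had 67.51 and 102.9 (0.61). Of the 40 genes, 26 lay above the highest of the 50 replication and nucleotide genes, and 0 of the 50 lay above the median of the 40. That highest gene, *Orc5*, stood above 81% of all measured genes, whose upper quartile was 0.18. The medians of the lists differed by 0.36, and by 0.35 to 0.36 under every processing choice tried. Of the 57 measured probes of the mitotic genes, 8 were below 0. With 1 array per population this difference has no replicate check, and it was known from earlier results of these arrays.

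**Figure D4:**
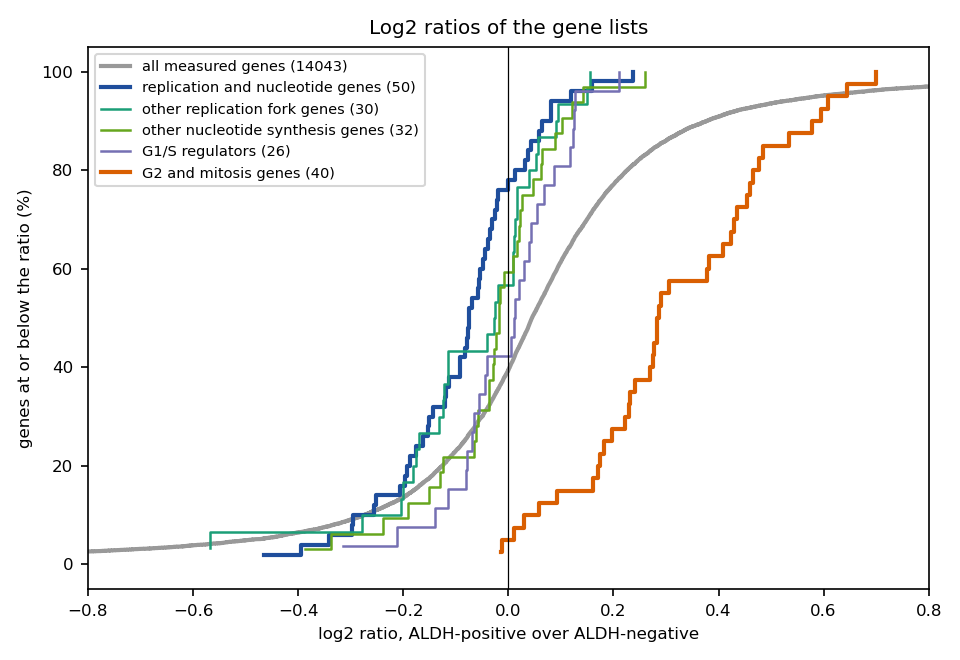
Cumulative share of genes (y, %) at or below each log2 ratio, ALDH-positive over ALDH-negative (x), 1 array per population, for the 50 replication and nucleotide genes, 4 comparison lists and all measured genes. The curve of the 50 genes reaches 78% at 0, where that of all measured genes stands at about 39.4% and that of the G2 and mitosis genes at 5% (the 50 genes reach 46% at 0 with the 75th percentile shift).

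The signals before normalization show how the scale was set. The ALDH-positive array was brighter, and before normalization the median log2 ratio was 0.47 for the 50 genes, from 0.001 for *Cdc45* to 0.70, and 0.55 for all measured genes. The order between the group and the rest of the array was thus present in the signals before normalization, and the sign of a single gene near 0 came from the scaling. Of the 39 genes below 0 with quantile normalization, 23 were also below 0 with the percentile shift.

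**Figure D5:**
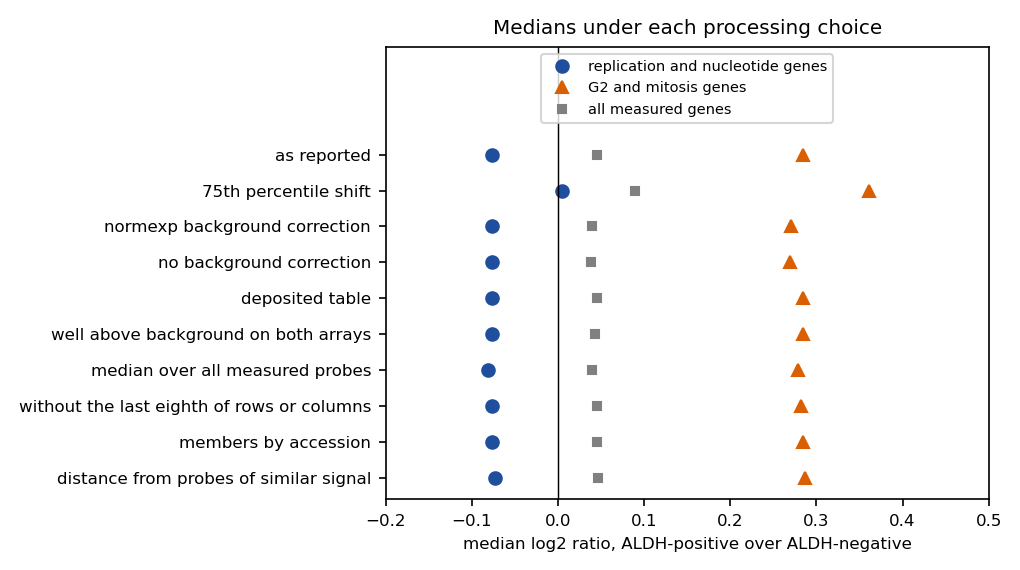
Median log2 ratio, ALDH-positive over ALDH-negative, of the 50 replication and nucleotide genes (circles), the 40 G2 and mitosis genes (triangles) and all measured genes (squares) under each processing choice. The circles lie left of the squares and the triangles right of them in every row, and the circle of the 75th percentile shift stands at 0.005.

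Both populations carried the markers of a carcinoma line. *Epcam*, *Krt8*, *Krt18*, *Krt19* and *Cdh1* were all measured, with log2 ratios from 0.16 to 0.54 and signals that summed to 324276 (ALDH-negative) and 366801 (ALDH-positive). Of 8 leukocyte markers 5 were measured, 4 of them below 0 and 1 above it, at 0.44. Their signals summed to 10030 and 6323. Most of this was *Itgam* at 7301 and 3795, past the study's lower limits (its other probes from -0.67 to 0.38). The defining marker *Ptprc* was not well above background on either array, and *Adgre1* was not found by name. Of 4 endothelial markers *Kdr* and *Pecam1* were measured (summed signals 7319 and 5426) and *Cdh5* and *Tek* were not. *Kdr* was at -0.44, past the lower limits, and *Pecam1* at 0.21, with dim signals of 27.03 and 31.29. Of 5 fibroblast markers 4 were measured (276.8 and 333), 3 of them below 0, the lowest at -0.70, and *Dcn* was not. *Postn*, at 74.01 and 144.2 (0.96), passed the higher limits. Of 9 ALDH isoforms active in the ALDEFLUOR assay 7 were measured, with a median log2 ratio of 0.06 and none past the limits by its brightest probe. Another measured probe of 1 isoform read 0.62, against 0.025 for its brightest probe. The part of these marker differences in the ratios of the replication genes was not tested.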

How the data were processed

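RNA of 1 ALDH-positive and 1 ALDH-negative population was labelled with Cy3 and hybridised to 1 array each by the authors. The deposited scanner files hold intensity values from the Feature Extraction software of Agilent (9.5.1.1 per the labels and 10.7.1.1 per the file headers), with a background-subtracted processed signal per spot. The authors' deposited table holds quantile-normalized intensity values, whose normalization was repeated here. The RNA kit differs between the labels (ReliaPrep) and the paper (RNeasy).

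From the processed signals, control spots were left out, and no spot was saturated. Spots flagged as population or non-uniformity outliers (135 ALDH-negative, 116 ALDH-positive) were also left out, unless their probe had no unflagged spot. Signals under 1 were set to 1, log2 values of repeated spots averaged, and both arrays quantile-normalized (Python 3.11.15, numpy 2.4.6, pandas 2.3.3). A Z-score, which the study does not define, was taken from the mean and SD of the log2 ratios of 250 probes brighter and 250 dimmer than the probe. Genes were measured when a probe was well above background on at least 1 array (28585 probes, 14043 genes). The selection limits were those of the study. Repeated spots had a median SD of 0.06 and 0.05 (log2), and precision is limited by the number of arrays. Probes are placed on build NCBI37 as the scanner files give it, and promoter positions are on GRCm38.p6. A fold against a signal not well above background was computed against the higher of the lowest signal well above background on that array and the probe's own signal. It leaves out the scanner error.

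The members, lists and comparisons were chosen with earlier results of these data known. Every gene of the group may be named. Of the other lists, genes past the limits and the 4 farthest from 0 were named, apart from a few items not reported here; *Espl1* was shown for its promoter and chosen after values were seen. Alternatives were another scaling, normexp (limma 3.58.1, R 4.3.3, offset 50) or no background correction, the deposited table, stricter filters, the median over probes, part of the array, matching by accession and other Z-score windows. The normalization and selection were tested on simulated data. The changes planted there were larger than the log2 ratio of any gene in the group, so this test does not bear on differences of that size.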

Additional observations from a re-analysis of the deposited data

How the results depend on the processing

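Results were recomputed under 8 other processing choices, the selection counts also under 3 other Z-score windows, and all of them under 1 choice made after seeing the data (each log2 ratio less the mean of probes of similar brightness). Of 123 main values compared, 121 moved by less than the limits used (0.08 on the log2 scale for medians, a factor of 1.5 for counts). The other 2 came from aligning the arrays at their 75th percentile, where the median log2 ratio of the 50 genes was 0.005 in place of -0.08 and 27 genes in place of 11 were above 0. That shift moved the median of all measured genes from 0.05 to 0.09, and the group's median lay 0.09 below it, against 0.12 with quantile normalization. Several of the 8 choices could hardly move the 50 genes, so agreement under them was near certain. Matching by accession added 0 probes to the group and took 0 away. All 50 genes were already above background on both arrays. For probes of the group, the deposited table differed from the repeated normalization by at most 0.0052 (log2). No gene of the group passed the selection limits under any alternative. Of 441 values of single genes 439 moved by less than their error, the exceptions being *Rfc4* (-0.17) and *Tk1* (-0.08) as medians over probes. This is a wide limit, because 41 of the 50 genes lay within their error of 0. A value could thus change sign and still be counted as unmoved. With the last eighth of rows and of columns left out, 41 genes remained, 35 of them below the median of all measured genes, and the genes for which no value could be given included *Orc5*, *Rpa2*, *Pole2* and the Okazaki fragment genes *Fen1* and *Lig1*, whose probes lie there. No paired analysis was possible because each population had a single array, and no replicate could be left out. At signals near background, as for the dimmest probes of *Pole* and *Tk1*, the size of a difference is not well determined.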
